A study of Mus musculus with 6 samples.

Results

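A set of 40 genes of T cells and cytotoxic lymphocytes was followed in cells of the mouse spleen that had been sorted for myeloid cells. The set held the signalling chains of the T-cell receptor, its coreceptors and adaptors, receptors and transcription factors of T cells and natural killer (NK) cells, and the proteins of their killing granules. A gene was taken where a probe set of the array carried that 1 symbol, and at most 1 probe set per gene was used, the one with the highest mean over all arrays. This gave 38 of the 40 genes, out of 19938 genes named in this way on the array, and each of the 38 had 1 probe set. Lck and Tcf7 are not analysed here. Genes whose mean over the 6 arrays lay under a log2 value of 4.72, the 30th percentile of the named probe sets, are called dim below. Of the 38, 27 lay above that threshold and 11 were dim. The nearest gene above it was Txk with a mean of 4.83, and the nearest below it was Sh2d2a with 4.64. Genes of the set were chosen with earlier results of these arrays known, Grap and Klrb1f among the strongest changes, so their counts are a description.

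Rapamycin, an inhibitor of the kinase mTOR, was injected into the peritoneum at 1.5 mg/kg every other day in 3 mice, and PBS, the salt solution without drug, in 3 mice. All 6 were lethally irradiated B6D2F1/J recipients that had received B6 bone marrow depleted of T cells, with or without B6 spleen cells. The labels do not say which mice received spleen cells, which hold T cells. Spleens were taken at day 10 after the transplantation, and magnetic beads against CD11b, an integrin of neutrophils, monocytes and macrophages, collected the cells that the labels call myeloid-derived suppressor cells. The labels give neither the purity of this sort nor the age of the mice. RNA of each mouse was read on 1 array, and values are log2 expression values as deposited. The number of arrays limits the precision of every value below.

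The T-cell receptor passes its signal through the CD3 chains and the zeta chain, whose cytoplasmic tyrosines are phosphorylated once the receptor binds a peptide on an MHC molecule. The kinase Zap70 then docks on them and phosphorylates the adaptor Lat, from which calcium and Ras signals spread. Cytotoxic T cells and NK cells kill by releasing granules that hold perforin, which opens the membrane of the target, and granzymes, proteases that start its death. Mature NK cells and some activated CD8 T cells carry CD11b themselves, so a CD11b sort can hold them as cells of the gate as well as by carry-over. After an allogeneic transplantation, donor T cells that react to the recipient cause graft-versus-host disease.

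Upstream sequence is shown for 7 of the genes that were lower with rapamycin, so that the results can be read beside it. The sequences are from RefSeq, build GRCm38.p6, and run from 200 bases to 1 base before the gene's start, 5′ to 3′ on the gene's strand. Capitals mark matches, on either strand, to short motifs of factors with a known part in lymphocytes: RUNX (TGTGGT), T-box (GGTGTGA), TCF/LEF (CTTTGA), ETS (AGGAAG) and STAT (TTCNNNGAA).
Cd3g (chr9:44980432-44980631, minus strand): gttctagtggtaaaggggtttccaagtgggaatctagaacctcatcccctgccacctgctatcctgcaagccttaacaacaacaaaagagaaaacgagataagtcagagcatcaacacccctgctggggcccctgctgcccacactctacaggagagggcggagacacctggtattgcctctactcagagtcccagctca
Cd3d (chr9:44981586-44981785, plus strand): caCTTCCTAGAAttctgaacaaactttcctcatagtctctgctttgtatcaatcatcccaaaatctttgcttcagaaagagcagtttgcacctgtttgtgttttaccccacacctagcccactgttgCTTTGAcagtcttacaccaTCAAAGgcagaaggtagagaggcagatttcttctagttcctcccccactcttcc
Cd8a (chr6:71373227-71373426, plus strand): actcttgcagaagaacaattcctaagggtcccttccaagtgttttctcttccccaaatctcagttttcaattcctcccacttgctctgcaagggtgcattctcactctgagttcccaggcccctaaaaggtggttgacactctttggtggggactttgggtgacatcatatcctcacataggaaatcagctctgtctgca
Ubash3a (chr17:31207866-31208065, plus strand): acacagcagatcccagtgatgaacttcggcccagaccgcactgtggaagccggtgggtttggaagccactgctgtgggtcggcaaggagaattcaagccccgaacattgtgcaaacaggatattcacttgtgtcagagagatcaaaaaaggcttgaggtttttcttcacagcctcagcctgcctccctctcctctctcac
Gzmb (chr14:56262335-56262534, minus strand): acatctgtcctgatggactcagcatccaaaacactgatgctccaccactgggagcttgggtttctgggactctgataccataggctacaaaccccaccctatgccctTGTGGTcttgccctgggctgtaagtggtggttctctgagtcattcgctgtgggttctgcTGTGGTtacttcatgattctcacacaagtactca
Nkg7 (chr7:43436938-43437137, plus strand): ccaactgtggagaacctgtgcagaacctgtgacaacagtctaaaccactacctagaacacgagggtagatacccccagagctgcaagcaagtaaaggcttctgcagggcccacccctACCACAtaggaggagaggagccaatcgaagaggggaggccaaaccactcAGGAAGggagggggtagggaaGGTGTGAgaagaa
Klrb1f (chr6:129045701-129045900, plus strand): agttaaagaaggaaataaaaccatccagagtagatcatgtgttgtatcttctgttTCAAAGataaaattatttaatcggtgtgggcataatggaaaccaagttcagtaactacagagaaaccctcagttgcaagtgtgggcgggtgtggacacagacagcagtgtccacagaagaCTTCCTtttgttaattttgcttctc
Gzmb held 2 RUNX motifs, which began 93 and 34 bases before the start. Nkg7 held a RUNX motif 83 bases before it, an ETS motif at 34 and a T-box motif at 13. Klrb1f held a TCF/LEF motif at 145 and an ETS motif at 25. In Cd3d, TCF/LEF motifs lay at 73 and 54, and an ETS motif at 198 overlapped a STAT motif at 197. None of the 5 motifs was in the windows of Cd3g, Cd8a and Ubash3a. The promoter table held 25 of the 38 genes, and the first window listed was taken where a gene had several. The RUNX letters were found in 7 of the 25, namely Gzma, Gzmb, Klrb1c, Klrk1, Ncr1, Nkg7 and Prf1, and in 11.2% of all 32851 windows of the same length. All 7 were granule genes or NK-type receptors, of which the table held 9, and 0 of the 16 other genes had the letters. The T-box letters were in 2 of 25 (2.64% of all windows), the TCF/LEF letters in 6 (10.9%), the ETS letters in 13 (24.7%) and the STAT letters in 2 (5.49%). These matches are descriptions of letters, and the split by role was seen after the search. Of the 7 genes with the RUNX letters, Gzmb and Nkg7 fell with rapamycin. Prf1 (-0.36), Gzma (-0.079), Klrb1c (0.065), Ncr1 (0.14) and Klrk1 (0.52) did not pass the test. Whether the letters bear on these changes was not tested.

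The sort markers were bright on all arrays. Itgam, which encodes CD11b, stood at 12.29, 12.30 and 12.22 with rapamycin and at 12.31, 12.48 and 12.38 with PBS. Among the T-cell markers, Cd3e lay above the brightness threshold on all 6 arrays. The defining NK markers Ncr1, Klrb1c and Klrd1 were dim, with no array above 4.23. Of 17 measured B-cell markers 10 were dim, Ms4a1 and Cd79a among them, and 7 lay above the threshold, the brightest being Bank1 with a mean of 6.80 and Cd79b with 6.20. Both kinds of gene thus had members on either side of the threshold: the T-cell genes Cd3d, Cd28, Ctla4, Skap1, Sh2d2a and Il7r were dim, and the NK-type receptors Klrb1f, Klrk1 and Il2rb were above it. Whether the measured transcripts came from carried-over lymphocytes was not tested, and "T-cell and cytotoxic lymphocyte genes" is used below for the set by its gene names.

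With rapamycin 8 of the 38 genes fell, 0 rose, 19 did not pass the test and the 11 dim ones were left out of this fit. The 8 were Klrb1f and Il2rb among the receptors, Gzmb and Nkg7 among the granule genes, Grap and Ubash3a among the signalling genes, and Cd3g and Cd8a of the receptor complex and its coreceptor. The drop ran from 2.08-fold (Grap) to 1.20-fold (Cd8a). Over the 13965 genes of the same limma fit, called at a Benjamini-Hochberg adjusted p under 0.05, 6.92% fell and 4.42% rose. At an unadjusted p under 0.05, 11 of the 27 genes in this fit were lower and 1, Klrk1, was higher, where 16.9% of its 13965 genes were lower and 11.3% higher. In the limma fit of all 19938 genes, which holds the 38, 9 were lower (the same 8 and the dim Cd3d) and 0 higher, where 3.87% of all genes were lower and 2.45% higher. At an unadjusted p under 0.05 that fit had 11 of the 38 lower and 1 higher, beside 13.3% lower and 9.54% higher among all named genes. The median log2 change of the 38 genes was -0.086, and that of all named genes -0.0060. In 12 of the 38 genes the 3 rapamycin arrays lay below the 3 PBS arrays, and in 2 above them. The shares among all named genes were 15.1% and 11.1%. In a mixed sample, fewer cells of a type and less RNA per cell cannot be told apart. The deposited labels call the mice biological replicates and give no array date.

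**Figure D1:**
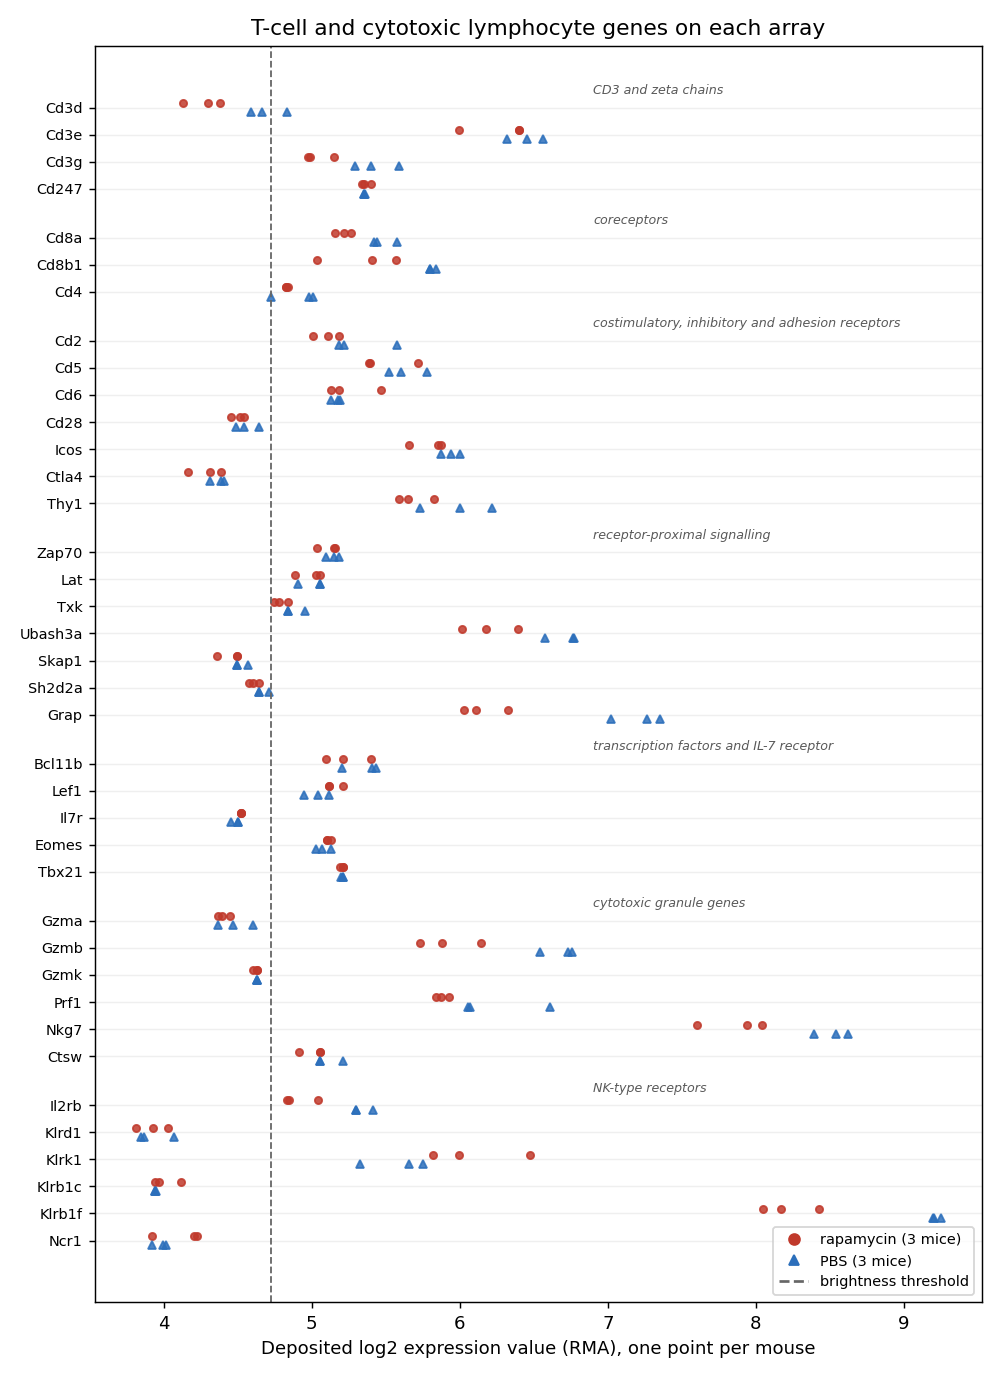
Deposited log2 values (horizontal axis) of the 38 genes, one row per gene and one point per mouse, with rapamycin as red circles above PBS as blue triangles in each row and the brightness threshold of 4.72 as a dashed line. Values are to be compared within a row; Klrb1f, Grap, Gzmb, Nkg7, Ubash3a, Il2rb, Cd3g and Cd8a show 3 rapamycin points left of the 3 PBS points, and Klrk1 shows them to the right.

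Of the 4 signalling chains of the T-cell receptor complex, 1 fell, 2 did not pass the test and 1 was dim. Cd3g, the gamma chain, had 5.15, 4.99 and 4.98 with rapamycin and 5.29, 5.40 and 5.59 with PBS. The groups did not overlap, and the change was -0.39 ± 0.09 (log2, SE, limma adjusted p 0.0335). Cd3d, the delta chain, was dim at 4.38, 4.30 and 4.13 with rapamycin and 4.83, 4.59 and 4.66 with PBS. In the limma fit of all named genes it was lower by -0.43 ± 0.09 (adjusted p 0.0396). Cd3g and Cd3d are neighbours on chromosome 9, where RefSeq lists Cd3e as the next protein-coding gene. Cd3e, the epsilon chain, stood at 6.40, 6.40 and 5.997 with rapamycin and 6.56, 6.32 and 6.46 with PBS, so that the groups overlapped. Its change of -0.18 ± 0.12 did not pass the test (adjusted p 0.357 with limma), and it was -0.049 without rapamycin replicate 3. Cd247, the zeta chain that NK cells also use, was nearly level at 5.36 ± 0.03 with rapamycin and 5.36 ± 0.01 with PBS (mean ± SD, n = 3 each). Whether the chains differed from each other in their change was not tested. Cd3g was called in 1 of the 6 fits that left out an array, that without PBS replicate 1 (adjusted p 0.0463), and its adjusted p reached 0.111 without PBS replicate 2. Cd3d was called in none of those 6 fits, with an adjusted p between 0.0761 and 0.114.

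Among the coreceptors, Cd8a fell, and Cd8b1 and Cd4 did not pass the test. Cd8a, which binds MHC class I beside the receptor, had 5.16, 5.27 and 5.22 with rapamycin, against 5.58, 5.42 and 5.44 with PBS. All 3 rapamycin values lay below the PBS values, and the change was -0.27 ± 0.06 (SE, limma adjusted p 0.0316). Cd8b1, its partner chain and its neighbour on chromosome 6, had 5.57, 5.41 and 5.03 with rapamycin and 5.84, 5.80 and 5.80 with PBS. The groups did not overlap here either, and the change of -0.48 ± 0.12 missed the threshold at an adjusted p of 0.0511 with limma. Rapamycin replicate 3 was the lowest of the Cd8b1 values, and without it the adjusted p was 0.0339 at a smaller change of -0.33. Cd8a was called in none of the 6 fits without an array, with an adjusted p between 0.0590 and 0.111. Cd4, the coreceptor for MHC class II, which some dendritic cells also make, averaged 4.83 ± 0.01 with rapamycin and 4.91 ± 0.16 with PBS (SD, n = 3 each), and these values overlapped.

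None of the 7 costimulatory, inhibitory and adhesion receptors passed limma's test. Of the 5 above the threshold 1, Thy1, was lower at an unadjusted p under 0.05, as were 16.9% of all genes in that fit. In the fit of all named genes it was 0 of the 7. Thy1, a surface glycoprotein of T cells, had 5.59, 5.65 and 5.82 with rapamycin and 5.73, 6.003 and 6.21 with PBS, with a change of -0.30 ± 0.12 (adjusted p 0.165). Only the highest rapamycin value reached into the PBS range. Without PBS replicate 3 the Thy1 difference was -0.18, with an unadjusted limma p of 0.146. Cd2, an adhesion receptor of T and NK cells, had 5.11, 5.18 and 5.01 with rapamycin, and 5.57, 5.18 and 5.22 with PBS. Its groups met at 5.18, and PBS replicate 1 stood above the other arrays; the difference of -0.22 was -0.10 without it. The costimulatory receptor Icos averaged 5.79 ± 0.12 with rapamycin and 5.94 ± 0.06 with PBS, and its difference of -0.14 was -0.075 without rapamycin replicate 3. Cd5, which damps receptor signals, differed by -0.13 ± 0.11 (SE), between -0.24 and -0.064 when an array was left out, and its neighbour on chromosome 19, Cd6, by 0.10 ± 0.09. The costimulatory receptor Cd28 and the inhibitory Ctla4, which with Icos form 1 gene cluster on chromosome 1, were dim on all 6 arrays, with differences of -0.054 and -0.082.

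Receptor-proximal signalling held the largest drop of the set. Grap, an adaptor related to Grb2, had 6.03, 6.11 and 6.33 with rapamycin and 7.35, 7.02 and 7.26 with PBS. The groups were clearly separate, and the change was -1.06 ± 0.11 (SE, limma adjusted p 0.00525). Ubash3a, a negative regulator of T-cell receptor signalling, had 6.18, 6.02 and 6.39 with rapamycin and 6.77, 6.57 and 6.76 with PBS. It fell by 0.51 ± 0.10 (limma adjusted p 0.0253). In both genes rapamycin replicate 3 was the highest of its group, the reverse of its place in Cd3e, Cd3d and Cd8b1. Zap70 differed by -0.030 ± 0.053, Lat by -0.016 ± 0.066, and the kinase Txk by -0.091 ± 0.052, and none of the 3 passed the test. The groups overlapped for Zap70 and Lat and not for Txk. The adaptors Skap1 and Sh2d2a were dim, at differences of -0.070 and -0.060. Grap remained called in each of the 6 fits that left out an array, with an adjusted p up to 0.0404. Ubash3a was called in 1 of them, that without rapamycin replicate 3 (adjusted p 0.0200), and reached 0.106 without rapamycin replicate 1.

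Transcription factors and the IL-7 receptor gave no call in limma's fits, and 0 of these 5 genes had an unadjusted p under 0.05. Bcl11b, which fixes the T-cell fate, averaged 5.24 ± 0.15 with rapamycin and 5.35 ± 0.13 with PBS (SD, n = 3 each). Lef1, a factor of the Wnt pathway in T cells, averaged 5.15 ± 0.05 with rapamycin and 5.03 ± 0.08 with PBS. Values of both genes overlapped between the groups. Eomes and Tbx21, the T-box factors that drive effector functions of cytotoxic cells, differed by 0.037 ± 0.045 and -0.0024 ± 0.040. Il7r, the survival receptor of resting T cells, was dim, at 4.52 with rapamycin on all 3 arrays and at 4.50, 4.45 and 4.50 with PBS.

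Several of these flat genes carried exactly equal deposited values on several arrays. Tbx21 had the same value, 5.21, on 4 arrays, Ctsw the value 5.05 on 4 and Skap1 the value 4.49 on 4. In all, 9 of the 38 genes had 3 or more equal values (23.7%), as did 19.7% of all named genes. The share was 5 of 11 among the dim genes of the set, where it was 32.1% of all dim genes. It was 0 of the 8 genes that fell. The groups of these 8 did not overlap, so 3 equal values would need a tie of all arrays of a group. In the genes above the threshold as a whole the share was 14.4%.

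Of the 6 cytotoxic granule genes 2 fell, 2 did not pass the test and 2 were dim. Of the 13965 genes in the fit 6.92% fell. All 6 changes were negative, the smallest by size being -0.0058 for the dim Gzmk. Among all 19938 named genes 10479 changes were negative. Whether the 6 granule genes differed from each other in their change was not tested. Gzmb, granzyme B, had 6.14, 5.73 and 5.88 with rapamycin and 6.76, 6.54 and 6.73 with PBS. It was 1.69-fold lower, at a log2 change of -0.76 ± 0.11 (SE, limma adjusted p 0.0102). Nkg7, a membrane protein of killing granules, had 8.04, 7.94 and 7.60 with rapamycin and 8.62, 8.39 and 8.54 with PBS. Its change was -0.66 ± 0.12, or 1.58-fold lower (adjusted p 0.0177 with limma), and both genes had groups that did not overlap. Prf1, perforin, had 5.87, 5.84 and 5.93 with rapamycin and 6.07, 6.06 and 6.61 with PBS. Its groups did not overlap, but PBS replicate 3 stood apart from the other PBS arrays, and the change of -0.36 ± 0.14 did not pass the test (adjusted p 0.144). Without PBS replicate 3 the difference was -0.18. The protease Ctsw differed by -0.099 ± 0.065. Gzma and Gzmk, neighbours on chromosome 13, were dim at means of 4.40 and 4.62 with rapamycin and 4.48 and 4.63 with PBS. Gzmb was called in 4 of the 6 fits without an array, and had an adjusted p of 0.0504 without PBS replicate 2 and 0.0535 without PBS replicate 3. Nkg7 was called in 3, and had 0.0689, 0.0638 and 0.0730 without PBS replicate 1, 2 and 3.

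**Figure D2:**
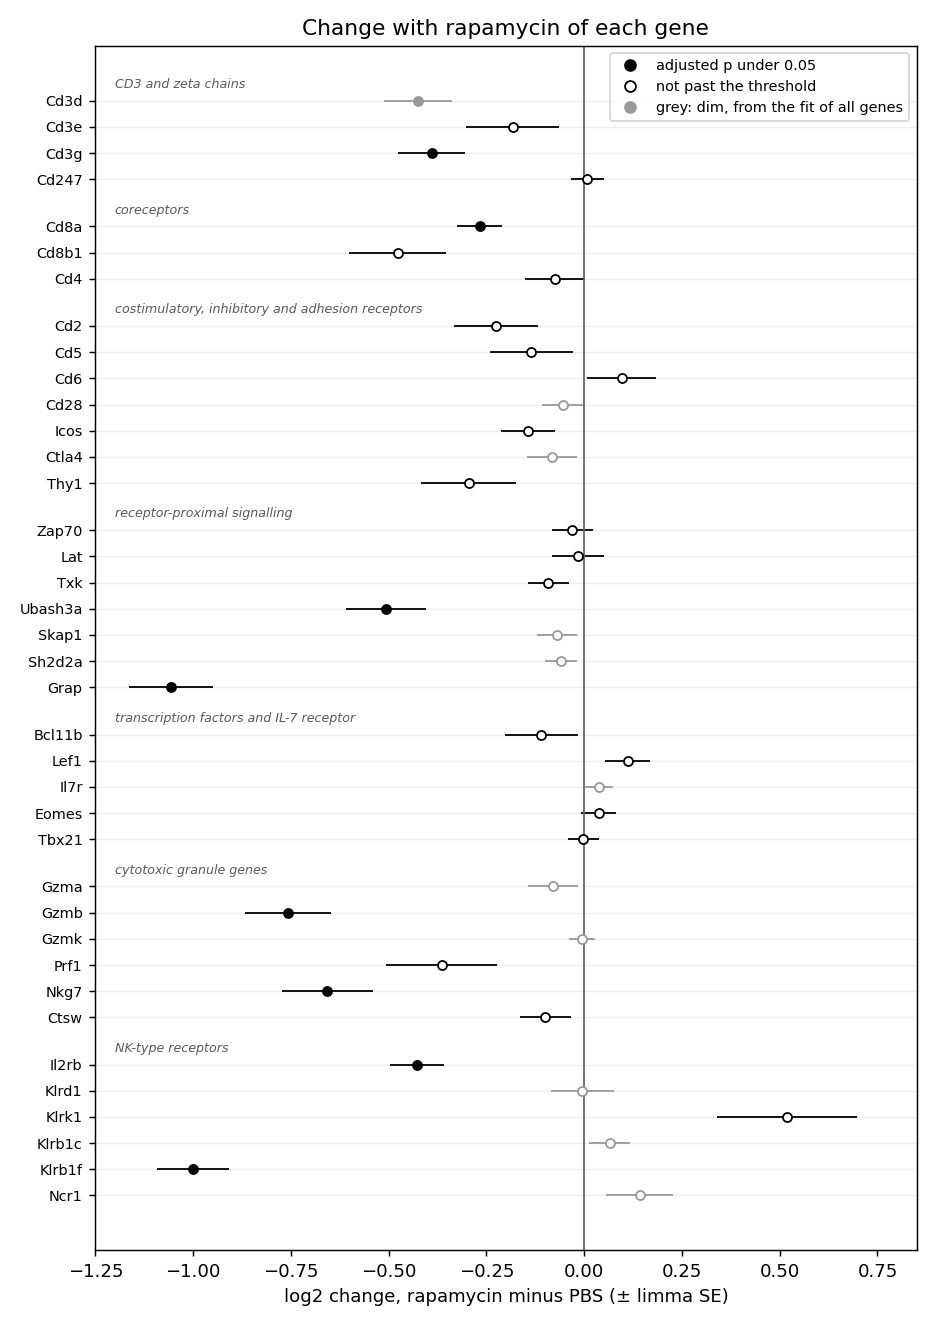
Log2 change, rapamycin minus PBS, with limma's standard error (horizontal axis) for each of the 38 genes, ordered by role; filled points passed an adjusted p of 0.05, open points did not, and grey points are dim genes taken from the fit of all named genes. The 9 filled points all lie left of 0, from -1.06 for Grap to -0.27 for Cd8a, and the largest positive value is that of Klrk1 at 0.52.

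NK-type receptors held both directions of difference. Klrb1f, a lectin-like receptor of the Nkrp1 family, had 8.05, 8.17 and 8.43 with rapamycin and 9.20, 9.25 and 9.20 with PBS. The change was -1.0002 ± 0.0926 (log2, SE), with an adjusted p of 0.00448 in limma's fit. The PBS values lay close together, and rapamycin replicate 3 stood nearest to them. Il2rb, the beta chain shared by the receptors of IL-2 and IL-15, had 5.04, 4.83 and 4.85 with rapamycin and 5.30, 5.30 and 5.41 with PBS. It changed by -0.43 ± 0.07 (limma adjusted p 0.0139). Klrk1, the activating receptor NKG2D, was placed the other way, at 6.48, 5.82 and 5.99 with rapamycin and 5.75, 5.65 and 5.33 with PBS. Its groups did not overlap, but the difference of 0.52 ± 0.18 did not pass the test (adjusted p 0.107 with limma), and it was 0.33 without rapamycin replicate 1. Klrd1, which pairs with NKG2 chains and is the neighbour of Klrk1 on chromosome 6, was dim and differed by -0.0044 ± 0.081. Klrb1c, the NK1.1 antigen of B6 mice, and Ncr1, the receptor NKp46, were dim with differences of 0.065 ± 0.053 and 0.14 ± 0.09. Klrb1f stayed called in each of the 6 fits that left out an array, with an adjusted p up to 0.0459. Il2rb was called in 4 of them, and not without PBS replicate 2 (0.0637) or PBS replicate 3 (0.0580).

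**Figure D3:**
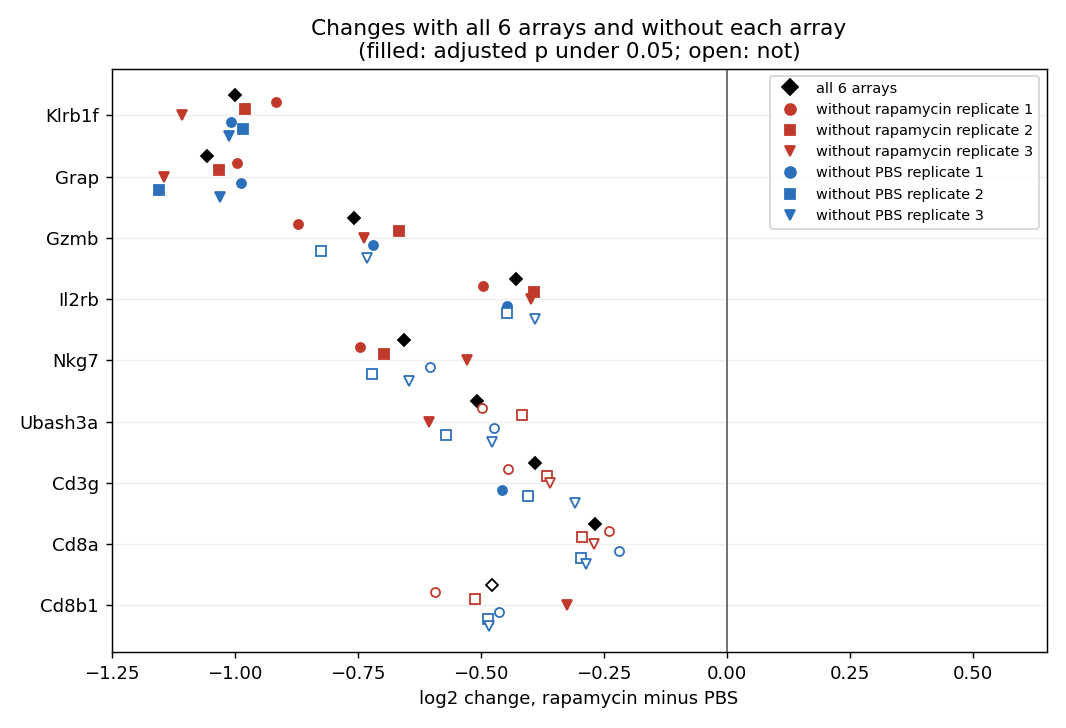
Log2 change, rapamycin minus PBS (horizontal axis), of the 8 genes called with all 6 arrays and of Cd8b1, with black diamonds for all 6 arrays, red symbols for fits without a rapamycin array and blue symbols for fits without a PBS array; filled symbols passed an adjusted p of 0.05. Klrb1f and Grap are filled throughout, Cd8a is filled with all 6 arrays alone, and every symbol lies left of 0.

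Leaving out an array, which also leaves the fit with 5 samples, changed the count of 8. Grap and Klrb1f were the 2 genes left when PBS replicate 2 or PBS replicate 3 was dropped. Dropping PBS replicate 1, rapamycin replicate 1 or rapamycin replicate 2 left 5 genes each time. With rapamycin replicate 3 dropped it was 7, with Cd8b1 in and Cd3g and Cd8a out. Over all genes 617 were called higher and 967 lower with all 6 arrays, and 52 higher and 61 lower without PBS replicate 2. Of the calls with all 6 arrays 61.0% were lower genes, and 44.7% lower genes when the medians of the tested genes were aligned between arrays (875 higher and 707 lower). In that setting 9 genes of the set were lower, the same 8 and Cd8b1.

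Genes related to the changed ones differed in direction. Beside the counts that follow, 6.92% of all genes in limma's fit were called lower and 4.42% higher. Of 23 measured genes of the Klr receptor families, 4 of them in the set, 17 were dim, 2 rose, 1 (Klrb1f) fell and 3 did not pass the test. Klrb1b, an inhibitory receptor of the Nkrp1 family, had 6.78, 6.53 and 6.49 with rapamycin and 6.11, 5.81 and 5.81 with PBS. Its change of 0.69 ± 0.11 (SE, limma adjusted p 0.0118) was opposite to that of Klrb1f, and the groups of neither gene overlapped. Klra2, a receptor of the Ly49 family, rose by 0.72 ± 0.10 (limma adjusted p 0.0103), and Klra17, named after its values were seen, differed by 0.58 ± 0.25 (0.179). The dim receptors Klrg1 and Klrc1 differed by -0.20 ± 0.05 and -0.25 ± 0.09. Cross-hybridization among these closely similar genes cannot be told apart from their own signal. Dropping PBS replicate 2 lost both Klrb1b and Klra2, and dropping PBS replicate 3, or rapamycin replicate 1, lost Klrb1b. Of 10 measured granzyme genes 8 were dim, Gzmb fell, and Gzmm, at 5.50 in both groups, differed by -0.0011. The Gzmm values were tied at 5.5029 on all rapamycin arrays and on PBS replicates 2 and 3. Among 12 measured partners and relatives of Grap, 2 of them in the set, 2 fell: Grap itself, and Grb2, which links receptors to Ras, by -0.26 ± 0.06 (adjusted p 0.0405 with limma). Grb2 was called in 1 of the 6 fits without an array, that without rapamycin replicate 1. Grap2, the Gads adaptor of T cells and platelets, differed by 0.39 ± 0.11 in the other direction (limma adjusted p 0.0690), as did Lcp2, the adaptor SLP-76, by 0.26 ± 0.07 (0.0637). Of 12 measured regulators of receptor phosphorylation, Ubash3a fell and the 11 others did not pass the test; its relative Ubash3b differed by -0.026 ± 0.046, and Cblb, a ubiquitin ligase that limits T-cell activation, by 0.30 ± 0.10.

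**Figure D4:**
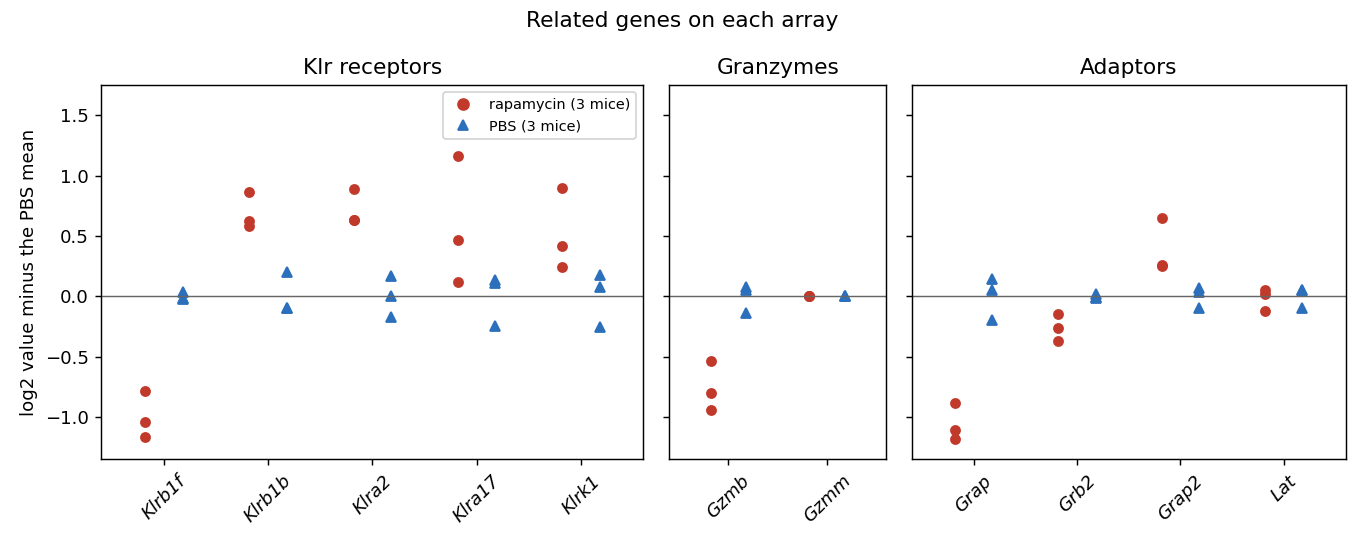
Log2 value of each mouse minus the gene's PBS mean (vertical axis) for receptors of the Klr families, 2 granzymes and 4 adaptors, with rapamycin as red circles left of PBS as blue triangles. Klrb1f, Gzmb and Grap lie below their PBS values, while the rapamycin points of Klrb1b and Klra2 lie above theirs.

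Of 37 measured T-cell genes outside the set, 4 fell, 0 rose, 20 did not pass limma's test and 13 were dim. At an unadjusted p under 0.05, 9 of the 24 above the threshold were lower and 4 higher (16.9% and 11.3% of all genes in that fit). The 4 that fell were Igfbp4, a binding protein of insulin-like growth factors (-0.60 ± 0.08, SE, limma adjusted p 0.00820), Ltb, the lymphotoxin beta chain (-0.48 ± 0.11), the transcription factor Klf2 (-0.44 ± 0.08) and the inhibitory receptor Tigit (-0.30 ± 0.06). Klf2 is also made by myeloid cells, as are other genes of that list. The median change of the list was -0.051. The count of 4 dropped to 0 when PBS replicate 2 was left out, to 1 for PBS replicate 3, to 1 for rapamycin replicate 1 and to 2 for PBS replicate 1. Of 28 measured NK and cytotoxic genes outside the set, 2 rose, 0 fell, 14 did not pass limma's test and 12 were dim. At an unadjusted p under 0.05, 5 of the 16 above the threshold were higher and 1 lower (11.3% and 16.9% of all genes in that fit). Cd244a, the receptor 2B4, rose by 0.59 ± 0.09 (limma adjusted p 0.0107), and Nfil3, a transcription factor needed for NK cells that other cells also make, by 0.39 ± 0.05 (0.00908). The brightest of the 28 were Fcer1g (mean 12.78), Tyrobp (11.62) and Il18rap (10.41), and Cd244a had a mean of 8.81. Which cells of the sort gave the signal of these genes was not tested. Slamf7 differed by 0.57 ± 0.16 (limma adjusted p 0.0639) and Il12rb2, a chain of the IL-12 receptor, by 0.39 ± 0.11 (0.0580), without passing the test. The dim Klrg1, an inhibitory receptor, differed by -0.20 ± 0.05 and did not pass either. The median change of that list was 0.033, and its count of 2 became 0 when PBS replicate 2 was left out, 1 for PBS replicate 3, 1 for rapamycin replicate 1, 3 for rapamycin replicate 3 and 4 for PBS replicate 1.

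Markers of other cells moved in both directions beside the set, and their part in its changes was not tested. Of all genes in limma's fit 6.92% were called lower and 4.42% higher. The 38 genes were chosen with earlier results of these arrays known, Grap and Klrb1f among them, so their mean level is a description. The mean log2 level over the 38 genes ran from 5.22 to 5.26 with rapamycin and from 5.38 to 5.45 with PBS. Over 17 B-cell markers it ran from 4.74 to 4.83 with rapamycin and 4.78 to 4.81 with PBS, with 1 of the 17, Cd79b, lower by -0.32 ± 0.06 (SE, limma adjusted p 0.0191) and 10 dim. The 8 plasma cell markers gave 0 calls in limma's fit. Of the 7 above the threshold 2 were higher and 0 lower at an unadjusted p under 0.05 (11.3% and 16.9% of all genes in that fit). By the same measure 3 of 9 erythroid and 2 of 9 dendritic cell markers were higher and 0 lower. The B-cell, plasmacytoid dendritic cell and platelet markers each had 0 higher and 1 lower. The myeloid markers had 2 higher and 1 lower. Over 9 erythroid markers the mean level ran from 5.55 to 5.69 with rapamycin and 5.42 to 5.45 with PBS; Slc4a1, the anion exchanger of red cells, rose by 0.64 ± 0.09 and the 8 others did not pass the test. Over 10 dendritic cell markers it ran from 5.62 to 5.80 with rapamycin and 5.46 to 5.63 with PBS, with Itgax, which encodes CD11c, 0.82 ± 0.18 higher. Of 7 markers of plasmacytoid dendritic cells Bst2 fell (-0.25 ± 0.05), 4 did not pass the test and 2 were dim. The change was positive in 5 of these 7 and negative in 2, with a median of 0.096. Of 6 markers of platelets and megakaryocytes Itgb3 fell (-0.46 ± 0.10), 3 did not pass the test and 2 were dim. Here 3 changes were positive and 3 negative, with a median of 0.0003. Among 14 markers of the sort and of myeloid cells, Cd14, the coreceptor for endotoxin, rose by 1.15 ± 0.10, the chemokine receptor Ccr2 fell by 0.34 ± 0.08, and the 12 others did not reach the threshold. The mean level over these 14 ran from 11.29 to 11.43 with rapamycin and 11.24 to 11.34 with PBS. Without PBS replicate 2, Cd14 was the single gene of the markers named here that was called. Ccr2 was called in none of the 6 fits without an array, Itgb3 in 1, Cd79b, Bst2 and Itgax in 2 each, and Slc4a1 in 5.

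**Figure D5:**
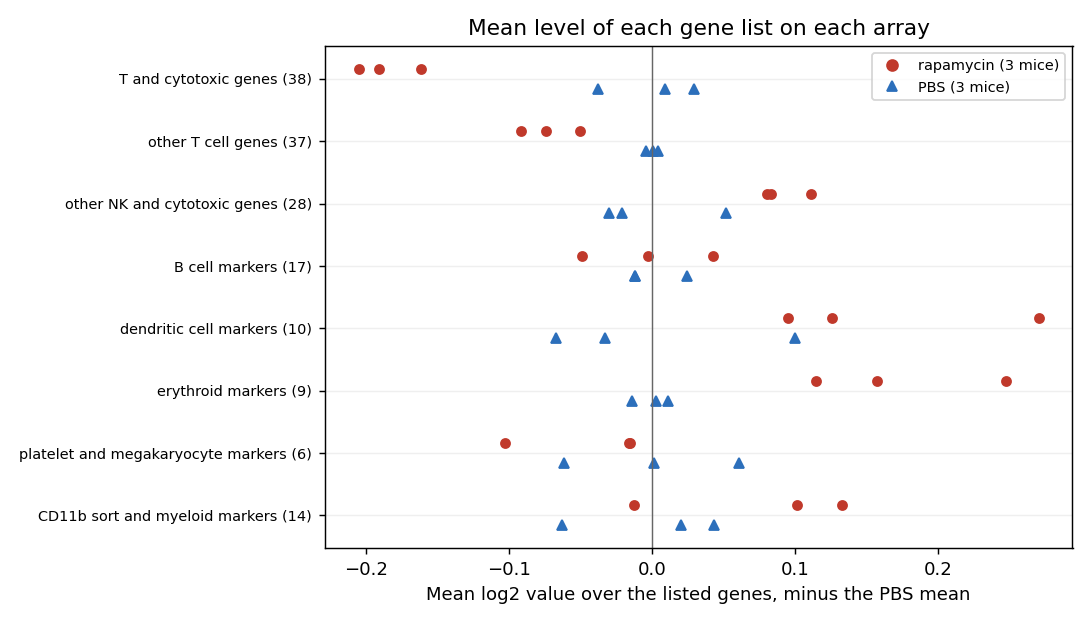
Mean log2 value over the genes of a list minus its PBS mean (horizontal axis), one point per mouse, with the number of measured genes in brackets and rapamycin as red circles above PBS as blue triangles. The 38 T-cell and cytotoxic genes and the 37 other T-cell genes lie left of their PBS values, the 28 other NK and cytotoxic genes and the 9 erythroid markers lie right of theirs, and the B-cell markers overlap. The lists were chosen with earlier results of these arrays known.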

How the data were processed

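The CD11b-sorted spleen cells of 6 mice (3 rapamycin, 3 PBS) gave total RNA, and each mouse has its own array, per the labels. For each probe set the authors deposited a log2 value. RMA and Affymetrix Expression Console are named in the submitters' processing notes; their versions are not given in the sources used here. A shift common to most genes cannot be seen after RMA, which equalises the arrays' distributions. Array medians ran from 5.42 to 5.46, and no further normalization was applied. No 2 arrays shared more than 6.99% of values exactly.

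Gene names come from the array's platform annotation at GEO, and 21698 of the 21789 with 1 symbol matched a RefSeq gene by Entrez ID. Of 35556 probe sets, 1621 with several symbols and 12146 not listed were left out. Genes were compared with limma 3.58.1 (lmFit and eBayes, 2-sided) in R 4.3.3, with Benjamini-Hochberg adjustment over the 13965 genes at or above the 30th percentile. Dim genes were read from a fit of all 19938. Errors after ± are limma's standard errors or, where stated, SD. The fit was tested on simulated data. It recovered 25 of 50 simulated log2 changes of 0.3, and 50 of 50 at each of 0.6, 1.0 and 2.0. Of its 184 calls there, 9 were false.

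The set and the related lists were chosen with earlier results of these data known. All genes of the set are named. Of each related list up to 4 others were named by the size of limma's moderated statistic, and defining markers. Outside that rule, the dim Klrg1 and Klrc1 and the bright Fcer1g, Tyrobp and Il18rap were named too. Klra17, Gzmm and Ubash3b were named after their values were seen. The labels do not say that the replicate numbers pair mice, so numbers were not taken as pairs. Same-numbered mice of the groups had correlations of deviations from the group means of 0.263, 0.010 and 0.046. Between differently numbered mice they ran from -0.193 to 0.138. These values do not settle whether the mice were paired. Settings tried were no brightness filter or the 50th percentile, quantile normalization repeated, aligned medians, mean or every probe set, a trended robust variance, array weights, the replicate block and leaving out each array. Aligning the medians of the tested genes was added after seeing the data. Plots were made in Python 3.11.15 (matplotlib 3.10.9).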

Additional observations from a re-analysis of the deposited data

How the results depend on the processing

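Across 547 results of single genes of the set under other settings, 507 kept their side of the threshold, 30 calls were lost and 10 were gained, and 0 called changes turned their sign. The sign turned in 19 results of 7 uncalled genes near 0. With the 50th percentile as filter, 5 genes of the set were lower in place of 8, because Cd3g, Cd8a and Il2rb are dimmer than it and were not tested. In the 7 other planned settings with all arrays and no block, and with the added alignment of medians, 8 or 9 were lower and 0 higher. With the replicate block 9 were lower and 1 (Klrk1, adjusted p 0.0341) was higher; Thy1 (0.0374) and Cd8b1 (0.0295) were in and Cd8a (0.0501) out, and no other call of the set changed. The numbers do not mark a known pairing. Leaving out 1 array gave between 2 and 7 lower and 0 higher genes of the set, and over all genes between 52 and 561 higher and between 61 and 775 lower ones. With repeated quantile normalization 68.8% of calls were lower genes, and with array medians aligned 71.0%. Of the 38 genes, 11 were dim.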
